A study of Mus musculus with 4 samples.

Results

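Genes of fatty acid and lipid metabolism were examined in inflamed distal colon of Elf4-KO and WT mice. Elf4 encodes an Ets-family transcription factor. The 52 genes described here are all those in the deposited table, of 4121 genes in all, whose symbol begins with the name of a family of lipid enzymes, carriers or regulators, such as Acad, Acsl, Fads, Fabp, Apo or Pla2g. They fall into 23 families. The Elf4-KO group and the WT group held 2 samples each, from C57BL/6 mice aged 8 weeks. Both had been given DSS (dextran sulfate sodium) at 3%, which damages the lining of the colon, and tissue was taken at day 6, so every sample had colitis. How Elf4 was disrupted, and whether both samples of a genotype came from separate animals, is not stated in the labels.

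The table holds only genes that passed the authors' call, with q up to 0.05 and, up to rounding, at least a 2-fold difference. It gives 1 FPKM value (fragments mapped, scaled for transcript length and for the size of the library) per genotype. No value per sample, SD or n can be shown, and the depth is unknown. "Rose" and "fell" below rest on the authors' call, and folds are ratios of the FPKM values. Elf4 itself had 3.51 FPKM in Elf4-KO and 16.4 FPKM in WT colon, a 4.68-fold difference. In the authors' deposited table, 37 of the 52 genes had the smallest q it holds, 0.000372, beside 2233 of all 4121 genes. The 5 lipid genes with q above 0.01 in the authors' deposited table were Acot1 (0.0139), Cideb (0.0171), Lpcat4 (0.0207), Acot4 (0.0232) and Acot8 (0.0471).

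Cells use fatty acids after coupling them to coenzyme A. The activated acids are burned in mitochondria and peroxisomes by beta-oxidation, built into membrane and storage lipids, or made longer and desaturated. Colonocytes, the absorptive cells of the colon epithelium, take much of their energy from oxidation of short-chain fatty acids made by gut bacteria. Macrophages and fat cells have their own sets of lipid carriers, droplet proteins and secreted apolipoproteins.

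Promoter sequences are shown for the 2 listed genes that fell most and the 2 that rose most among those with a RefSeq promoter, on the log2(FPKM + 1) scale. They are Hao2 and Acsm3, and Apod and Pdk4. Each run is the 250 bases before the RefSeq start of the gene on GRCm38.p6, read 5′ to 3′ along the strand of the gene. Capitals mark the Ets core GGAA on either strand, a motif added after the values were seen, because Elf4 is an Ets factor.
Hao2, chr3:98893231-98893480, minus strand: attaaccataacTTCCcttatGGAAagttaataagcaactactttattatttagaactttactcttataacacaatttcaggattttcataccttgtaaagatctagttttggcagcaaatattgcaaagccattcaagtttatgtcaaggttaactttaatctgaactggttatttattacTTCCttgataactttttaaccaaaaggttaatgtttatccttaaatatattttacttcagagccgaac
Acsm3, chr7:119760673-119760922, plus strand: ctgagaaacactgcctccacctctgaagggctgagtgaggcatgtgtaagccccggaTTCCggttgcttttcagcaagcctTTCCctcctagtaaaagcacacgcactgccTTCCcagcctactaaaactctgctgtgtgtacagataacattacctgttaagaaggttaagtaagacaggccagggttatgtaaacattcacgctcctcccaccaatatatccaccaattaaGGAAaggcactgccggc
Apod, chr16:31314809-31315058, minus strand: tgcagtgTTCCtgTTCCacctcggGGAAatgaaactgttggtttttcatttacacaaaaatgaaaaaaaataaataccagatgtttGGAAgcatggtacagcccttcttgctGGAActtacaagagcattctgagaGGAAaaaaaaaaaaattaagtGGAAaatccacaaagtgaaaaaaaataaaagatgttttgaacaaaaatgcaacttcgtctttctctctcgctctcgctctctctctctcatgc
Pdk4, chr6:5496279-5496528, minus strand: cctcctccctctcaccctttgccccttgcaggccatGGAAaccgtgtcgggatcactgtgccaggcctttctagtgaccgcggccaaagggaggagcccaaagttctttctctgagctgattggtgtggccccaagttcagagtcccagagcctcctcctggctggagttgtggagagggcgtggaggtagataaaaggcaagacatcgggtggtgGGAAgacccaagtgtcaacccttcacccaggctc

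The Ets core occurred 3 times before Hao2, 4 times before Acsm3, 7 times before Apod and 2 times before Pdk4. The median was 3 over the member promoters and 3 over all 32851 promoters in the RefSeq table. At least 1 match was present in 93.4% of all promoters, so these letters are common. Among the 45 members with a promoter in that table, 41 had it, 26 of 29 that fell and 15 of 16 that rose. The longer form CCGGAAG, on either strand, was present before 3 members that fell (Acss2, Cpt2 and Hmgcs1) and 0 that rose. These are 6.67% of the 45 members, near the 6.91% of all promoters. With so few matches, the split by direction is not a result.

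Of the 52 genes, 32 (61.5%) fell and 20 (38.5%) rose in Elf4-KO colon. Over all listed genes, 52.0% fell and 48.0% rose. Both directions were thus well represented, and the lean of the lipid genes toward lower values was not tested. A difference of at least 4-fold was seen in 16 genes that were lower (30.8%, beside 24.5% of all listed genes) and in 9 that were higher (17.3%, beside 12.9%). The median log2 ratio of FPKM + 1 was -1.20 for the 52 genes and -0.76 for all listed genes. The median fold was 3.87 among the lipid genes that fell and 3.79 among those that rose, beside 3.79 and 2.95 over all listed genes. The symbol pattern matched 160 protein-coding genes in GENCODE M21, of which 32.5% were listed, beside 17.5% of all annotated protein-coding genes. Genes absent from the table are called not listed below and are not analysed here, whatever their level was.

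**Figure D1:**
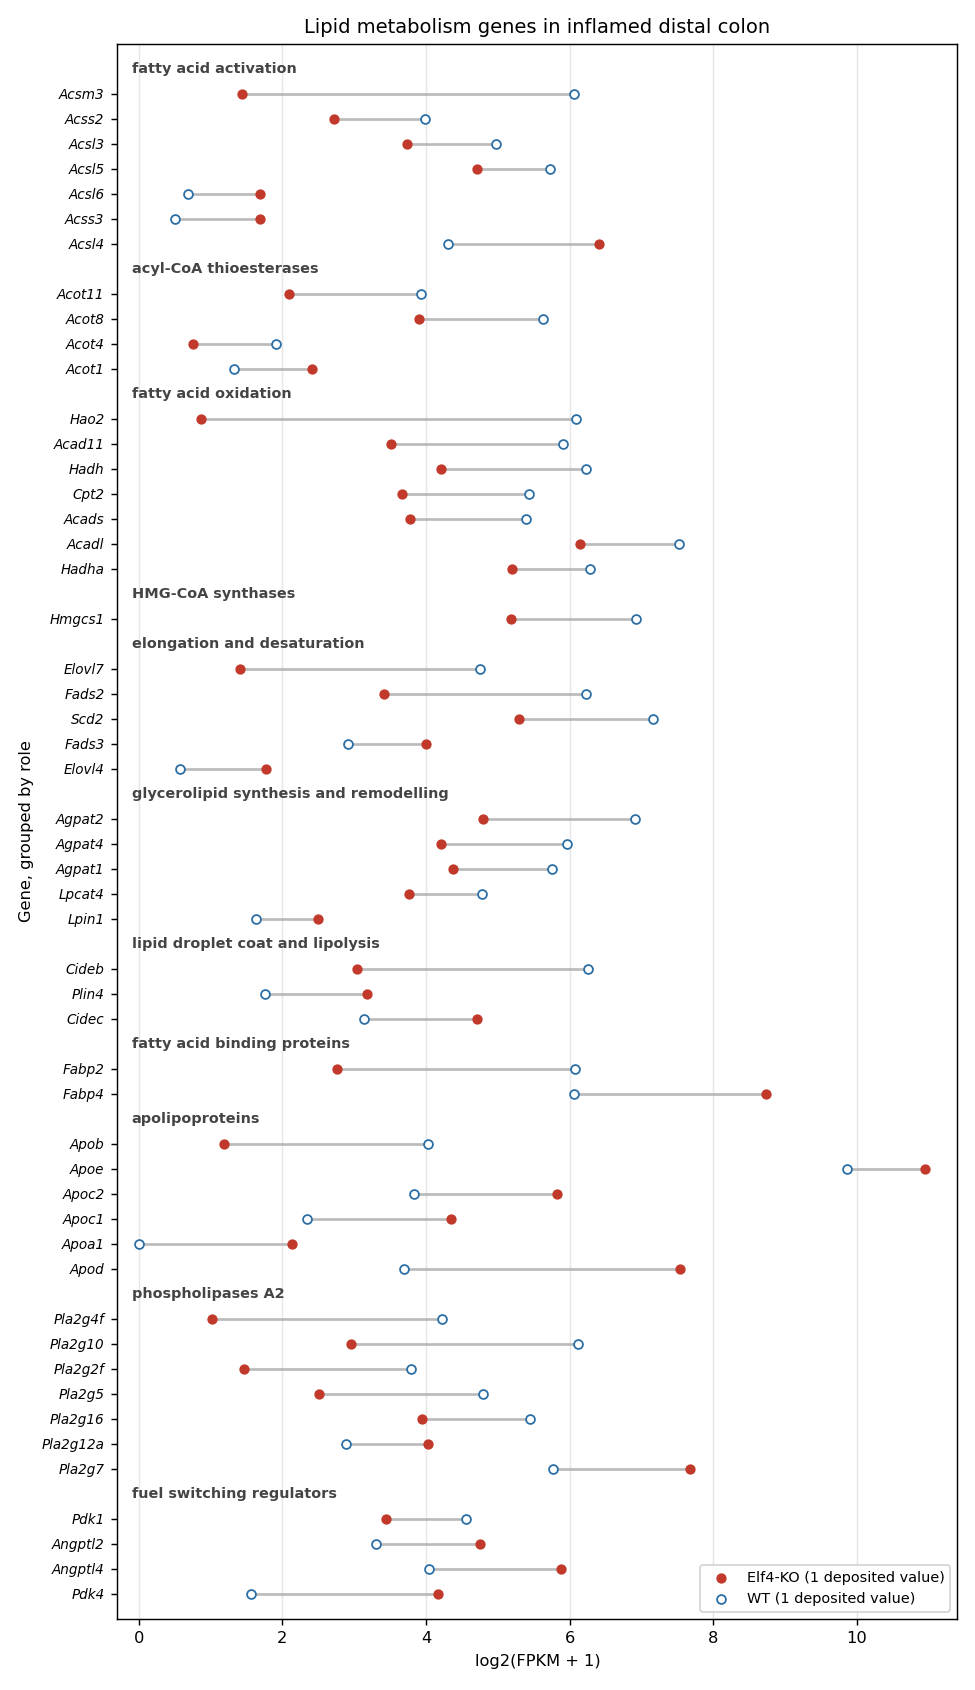
Level of the listed lipid genes that are named in the text as log2(FPKM + 1), grouped by role, with 1 deposited value per genotype and no error bar (filled red, Elf4-KO; open blue, WT). All fatty acid oxidation genes drawn lie further left in Elf4-KO, while 5 of 6 apolipoprotein genes lie further right.

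The enzymes of fatty acid oxidation fell without an exception among those listed. All 8 were lower in Elf4-KO colon, beside 52.0% of all listed genes. Cpt2, which completes the import of long-chain fatty acids into mitochondria, had 11.7 FPKM in Elf4-KO and 42.3 FPKM in WT (3.62-fold lower). Acadl and Acads are mitochondrial acyl-CoA dehydrogenases for long and short chains. Acadl had 69.6 FPKM in Elf4-KO and 182 FPKM in WT (2.62-fold lower), and it was the most abundant gene of the group in both genotypes. Acads had 12.7 FPKM in Elf4-KO and 41.1 FPKM in WT (3.23-fold lower).

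Among genes of later mitochondrial steps, Hadh and Hadha were listed, and both fell. Hadh, the dehydrogenase for medium and short 3-hydroxyacyl-CoA, had 17.5 FPKM in Elf4-KO and 73.9 FPKM in WT (4.23-fold lower). Hadha, the alpha subunit of the trifunctional protein, had 35.7 FPKM in Elf4-KO and 77.1 FPKM in WT (2.16-fold lower). Acad11, a further acyl-CoA dehydrogenase, had 10.4 FPKM in Elf4-KO and 59.1 FPKM in WT (5.68-fold lower). Hao2, a peroxisomal oxidase of 2-hydroxy acids whose promoter is shown above, had 0.827 FPKM in Elf4-KO and 67.2 FPKM in WT (81.2-fold lower). It ranked 8 among the 2141 genes that fell, by log2 ratio, and lies at chr3:98874521-98893239. Acadm, Acadvl, Hadhb and Cpt1a, also of this pathway, were not listed.

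Fatty acid activation moved both ways, as did the whole table. Of 7 listed acyl-CoA synthetases, 4 fell (57.1%, beside 52.0% of all listed genes) and 3 rose. Acsm3, a medium-chain synthetase at chr7:119760923-119848943, had 1.70 FPKM in Elf4-KO and 65.7 FPKM in WT (38.6-fold lower), the largest fall after Hao2. Of its exonic bases, 39.7% lie under exons of Eri2, and whether strand was kept in counting is not given, so reads of these genes may not be separated. Acss2, which activates acetate, had 5.60 FPKM in Elf4-KO and 14.8 FPKM in WT (2.64-fold lower). Acss3, a mitochondrial short-chain synthetase, was low in both genotypes, with 2.23 FPKM in Elf4-KO and 0.413 FPKM in WT (5.38-fold higher), and 33.9% of its exonic bases lie under Ppfia2.

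Among the listed long-chain synthetases the leading gene differed between the genotypes. Acsl4, which prefers arachidonic acid and other polyunsaturated acids, had 84.2 FPKM in Elf4-KO and 18.7 FPKM in WT (4.50-fold higher). Acsl5 had 25.1 FPKM in Elf4-KO and 52.0 FPKM in WT (2.08-fold lower), and Acsl3, of the endoplasmic reticulum and lipid droplets, had 12.3 FPKM in Elf4-KO and 30.5 FPKM in WT (2.47-fold lower). Acsl6 was low, with 2.21 FPKM in Elf4-KO and 0.610 FPKM in WT (3.63-fold higher). The summed level of these 4 genes was 124 FPKM in Elf4-KO and 102 FPKM in WT. Acsl4 made up 68.0% of that sum in Elf4-KO and 18.4% in WT, while Acsl5 made up 20.2% in Elf4-KO and 51.1% in WT. Acsl1 was not listed and is not in these sums. Genes called in opposite directions must shift in share, so the shift itself is not a result.

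Thioesterases split acyl-CoA back into free acid and coenzyme A. Of the 4 listed, 3 fell (75.0%, beside 52.0% of all listed genes). Acot8, a peroxisomal enzyme, had 14.0 FPKM in Elf4-KO and 48.3 FPKM in WT (3.45-fold lower). Acot11 had 3.28 FPKM in Elf4-KO and 14.3 FPKM in WT (4.37-fold lower), and Acot4, also peroxisomal, had 0.685 FPKM in Elf4-KO and 2.76 FPKM in WT (4.03-fold lower). Acot1, a cytosolic enzyme, had 4.31 FPKM in Elf4-KO and 1.51 FPKM in WT (2.85-fold higher). Acot1 and Acot4 lie 20007 bases apart on chromosome 12 and moved in opposite directions. Of the 50-base words in Acot1 transcripts, 19.2% also occur in transcripts of other genes, chiefly Acot2, so its value is uncertain.

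Of 5 listed desaturases and elongases, the 3 with the higher levels in WT fell and the 2 with the lower levels in WT rose. The WT level is part of the ratio that set the direction, so this link is not a result. The share that fell was 60.0%, beside 52.0% of all listed genes. Fads2, the delta-6 desaturase of polyunsaturated fatty acid synthesis, had 9.71 FPKM in Elf4-KO and 74.1 FPKM in WT (7.64-fold lower). Its neighbor Fads3, 2654 bases away on chromosome 19 and on the opposite strand, had 15.0 FPKM in Elf4-KO and 6.56 FPKM in WT (2.28-fold higher). Scd2, a stearoyl-CoA desaturase that makes monounsaturated acids, had 38.3 FPKM in Elf4-KO and 142 FPKM in WT (3.72-fold lower). Elovl7, an elongase of long-chain acids, had 1.66 FPKM in Elf4-KO and 26.0 FPKM in WT (15.6-fold lower). Elovl4, which makes very long chains, was low in both genotypes, with 2.42 FPKM in Elf4-KO and 0.486 FPKM in WT (4.98-fold higher). None of the 6 annotated ceramide synthase genes was listed.

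Hmgcs1, the cytosolic HMG-CoA synthase that feeds cholesterol synthesis, had 35.2 FPKM in Elf4-KO and 121 FPKM in WT (3.43-fold lower). The 250 bases before its RefSeq start are shown because the genes of its pathway that were listed also fell, and both the promoter and the sterol motif were chosen after the values were seen. Capitals mark, from left to right, the nuclear receptor motif AGGTCA on the reverse strand, the sterol regulatory element TCACNCCAC and the Ets form CCGGAAG on the reverse strand.
Hmgcs1, chr13:119690101-119690350, plus strand: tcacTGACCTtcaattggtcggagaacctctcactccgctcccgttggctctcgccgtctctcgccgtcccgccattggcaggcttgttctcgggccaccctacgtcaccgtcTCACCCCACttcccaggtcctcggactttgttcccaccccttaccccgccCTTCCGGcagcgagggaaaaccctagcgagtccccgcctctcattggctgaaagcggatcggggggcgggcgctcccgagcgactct

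The sterol element is the known target sequence of SREBP factors, which drive cholesterol synthesis genes. It began 137 bases before the start of Hmgcs1, and it was also present before Pla2g12a, which rose. Over all promoters, 1.05% held it on either strand. A set of 18 genes of the steps that make cholesterol was drawn from a longer list after the values were seen. Of these, 13 were listed and 13 fell, between 2.01-fold and 6.18-fold. Of all annotated protein-coding genes 17.5% were listed, and of all listed genes 52.0% fell. Of the 13 listed genes, 9 had a promoter in the RefSeq table, and the element was found in 0 of them. A string held by 1.05% of all promoters would rarely appear among so few. This 0 therefore does not bear on binding by SREBP. Other motifs searched on either strand among the 45 member promoters were AGGTCA (7 members, 14.0% of all promoters), the E-box CACGTG (2 members, 6.02%) and TATAAA (4 members, 12.4%). The HNF4 motif CAAAGTCCA (0.384% of all promoters) was found in 0 members. The direct repeat of AGGTCA with 1 base between, bound by PPAR and RXR (0.0335%), was also found in 0 members. Both strings are too rare over all promoters for these 0 counts to bear on binding. The E-box and TATAAA searches were also added after the values were seen.

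**Figure D2:**
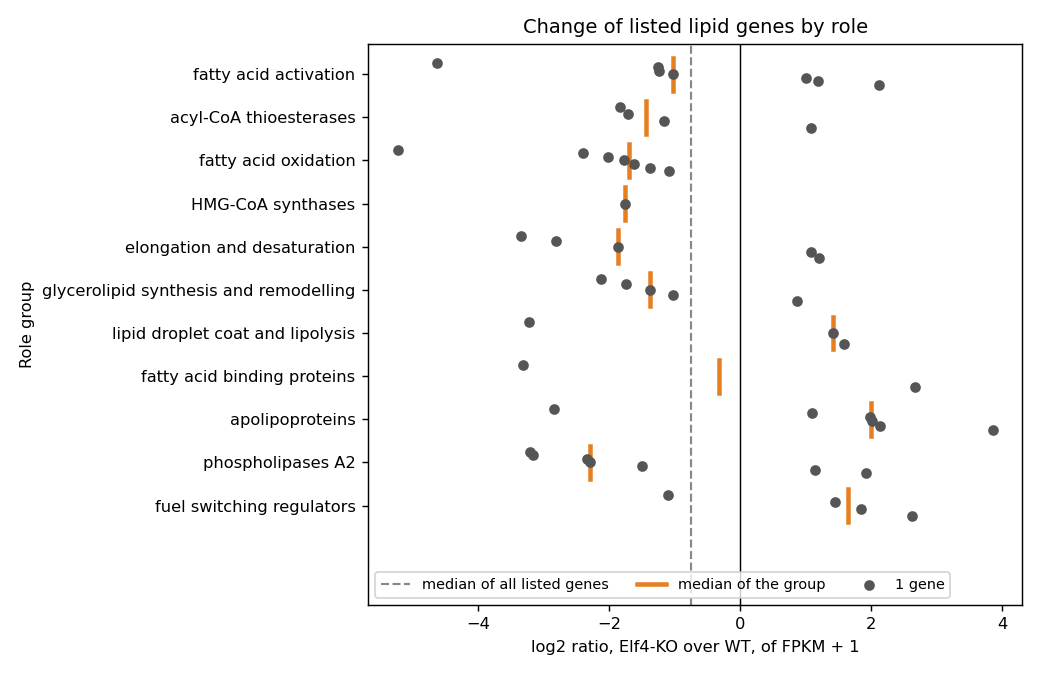
Log2 ratio of FPKM + 1, Elf4-KO over WT, for the listed lipid genes named in the text (points) by role group, with the median over all listed genes of the group (orange bar) and of all listed genes (dashed line, -0.76). The fatty acid oxidation genes all lie below 0, the lowest at -5.22, and the apolipoprotein genes lie between -2.84 and 3.85.

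Enzymes that build and remodel glycerolipids mostly fell, with 4 of 5 lower (80.0%, beside 52.0% of all listed genes). Agpat1, Agpat2 and Agpat4 add the acyl chain that turns lysophosphatidic acid into phosphatidic acid. Agpat2 had 26.6 FPKM in Elf4-KO and 119.8 FPKM in WT (4.50-fold lower). Agpat4 had 17.6 FPKM in Elf4-KO and 61.2 FPKM in WT (3.49-fold lower), and Agpat1 had 19.8 FPKM in Elf4-KO and 53.2 FPKM in WT (2.69-fold lower). Their summed level was 64.0 FPKM in Elf4-KO and 234 FPKM in WT, without the Agpat genes that were not listed. Lpcat4, which reacylates lysophospholipids, had 12.5 FPKM in Elf4-KO and 26.4 FPKM in WT (2.11-fold lower). Lpin1, a phosphatidic acid phosphatase, was the exception, with 4.63 FPKM in Elf4-KO and 2.09 FPKM in WT (2.22-fold higher).

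Of 3 listed genes of the lipid droplet, 1 fell (33.3%, beside 52.0% of all listed genes) and 2 rose. Cideb, known from liver and intestine, had 7.22 FPKM in Elf4-KO and 75.5 FPKM in WT (10.5-fold lower). Of its exonic bases, 76.3% lie under exons of Nop9, so this value is uncertain. Cidec, which enlarges droplets in fat cells, had 25.2 FPKM in Elf4-KO and 7.76 FPKM in WT (3.24-fold higher). Plin4, a droplet coat protein, had 8.05 FPKM in Elf4-KO and 2.38 FPKM in WT (3.38-fold higher). The lipases and other coat genes of this group, among them Pnpla2, Mgll, Plin1 and Plin2, were not listed.

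Both listed fatty acid binding proteins had nearly the same level in WT and lay far apart in Elf4-KO. Fabp2, the intestinal form, had 5.76 FPKM in Elf4-KO and 66.4 FPKM in WT (11.5-fold lower). Fabp4, the form of fat cells, macrophages and endothelium, had 427 FPKM in Elf4-KO and 66.1 FPKM in WT (6.46-fold higher). Fabp4 thus made up 98.7% of their sum in Elf4-KO and 49.9% in WT. Fabp genes that were not listed are not in this sum.

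Apolipoproteins, the protein part of lipoprotein particles, were the group with the most rises, 5 of 6 (83.3%, beside 48.0% of all listed genes). Apoe, a ligand of lipoprotein receptors secreted by macrophages among other cells, was the most abundant of the 52 genes in both genotypes, with 1974 FPKM in Elf4-KO and 927 FPKM in WT (2.13-fold higher; q = 0.00564 in the authors' deposited table). Its neighbors on chromosome 7 rose with it. Apoc1 had 19.4 FPKM in Elf4-KO and 4.08 FPKM in WT (4.76-fold higher), and Apoc2, the activator of lipoprotein lipase, had 55.6 FPKM in Elf4-KO and 13.3 FPKM in WT (4.18-fold higher). Of the exonic bases of Apoc2, 79.5% are shared with the overlapping gene Gm44805, so its value is uncertain. Apoc2, Apoc1 and Apoe lie in that order, with gaps of 11539 and 3448 bases, at chr7:19671579-19699188.

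The other apolipoproteins included the largest rise and the exception. Apod, a lipocalin that binds arachidonic acid, had 185 FPKM in Elf4-KO and 11.9 FPKM in WT (15.6-fold higher), and it ranked 30 among the 1980 genes that rose. Apoa1, the main protein of high-density lipoprotein, had 3.40 FPKM in Elf4-KO and was listed at 0 in WT, so no fold is given. Apob, the structural protein of chylomicrons and low-density lipoprotein, had 1.27 FPKM in Elf4-KO and 15.3 FPKM in WT (12-fold lower). Without Apoe, the summed level of the listed lipid genes was 1635 FPKM in Elf4-KO and 2053 FPKM in WT, and with it 3609 FPKM in Elf4-KO and 2980 FPKM in WT, so this 1 gene decided which sum was higher.

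Phospholipases A2 release fatty acids, arachidonic acid among them, from membrane phospholipids. Of 7 listed, 5 fell (71.4%, beside 52.0% of all listed genes) and 2 rose. Pla2g10, a secreted enzyme, had 6.79 FPKM in Elf4-KO and 68.6 FPKM in WT (10.1-fold lower). Pla2g4f, a cytosolic enzyme, had 1.02 FPKM in Elf4-KO and 17.7 FPKM in WT (17.3-fold lower). The secreted forms Pla2g5 and Pla2g2f lie 41617 bases apart on chromosome 4, and both fell. Pla2g5 had 4.68 FPKM in Elf4-KO and 26.8 FPKM in WT (5.73-fold lower), and Pla2g2f had 1.75 FPKM in Elf4-KO and 12.8 FPKM in WT (7.33-fold lower). Pla2g16, a phospholipase known from fat tissue, had 14.4 FPKM in Elf4-KO and 42.6 FPKM in WT (2.95-fold lower).

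The exceptions were Pla2g7 and Pla2g12a. Pla2g7, which encodes the secreted hydrolase of platelet-activating factor made by macrophages, had 204 FPKM in Elf4-KO and 53.3 FPKM in WT (3.83-fold higher). Pla2g12a, another secreted form, had 15.3 FPKM in Elf4-KO and 6.40 FPKM in WT (2.39-fold higher). The summed level of the 7 genes was 248 FPKM in Elf4-KO and 228 FPKM in WT. Pla2g7 made up 82.3% of that sum in Elf4-KO and 23.4% in WT. Phospholipase A2 genes that were not listed are not in this sum. Here too, genes called in opposite directions must shift in share, so the shift itself is not a result.

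Among Pdk and Angptl genes, grouped by symbol as regulators of fuel choice, 3 of 4 rose (75.0%, beside 48.0% of all listed genes). Pdk4 and Pdk1 both inhibit pyruvate dehydrogenase and so hold back the oxidation of glucose carbon. Pdk4 had 17.0 FPKM in Elf4-KO and 1.95 FPKM in WT (8.75-fold higher), while Pdk1 had 9.92 FPKM in Elf4-KO and 22.4 FPKM in WT (2.26-fold lower). Their sum was 27.0 FPKM in Elf4-KO and 24.4 FPKM in WT, with Pdk4 at 63.2% of it in Elf4-KO and 7.99% in WT. Pdk genes that were not listed are not in this sum. Angptl4, a secreted inhibitor of lipoprotein lipase, had 58.0 FPKM in Elf4-KO and 15.5 FPKM in WT (3.76-fold higher). Angptl2, a secreted protein linked to inflammation, is in this group by its symbol only. It had 25.8 FPKM in Elf4-KO and 8.88 FPKM in WT (2.91-fold higher).

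Gene models limited some of these values. In 8 of the 52 genes, at least 10% of exonic bases lay under exons of another annotated gene. Besides Apoc2, Cideb, Acsm3 and Acss3 they were Acot11 (20.9%), Acot8 (12.3%), Hmgcs1 (12.1%) and Pla2g7 (11.0%). In 17 genes the locus in the table reached over 1000 bases beyond the GENCODE M21 gene, Acsm3 and Fabp2 among them. For Angptl2 it began 82652 bases before the annotated gene and ended 123769 bases after it, by coordinate. For Acad11 it began 60833 bases before, and for Agpat2 it reached 13043 bases before and 32080 after. The values of these genes are therefore uncertain.

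Of 23 families, 14 had at least 2 listed genes, and 10 of these had genes both higher and lower in Elf4-KO. These 10 families held 33 of the 52 genes. Since 61.5% of the 52 genes fell and 38.5% rose, a mix of directions within a family is not by itself a result about these families. The acyl-CoA dehydrogenases (Acad, 3 listed), the 3-hydroxyacyl-CoA dehydrogenases (Had, 2), the Agpat enzymes (3) and the Angptl proteins (2) each moved 1 way. The Angptl genes rose and the others fell. With so few genes in each, a shared direction is not by itself a result either. In the Cide, Elovl, Fads and Pdk pairs the more abundant gene in WT fell and the other rose. Since the WT level is part of the ratio that set the direction, that link is not a result. The order of the levels in these pairs was reversed in Elf4-KO. In the Acss pair the order was kept, with Acss2 at 71.6% of the sum in Elf4-KO and 97.3% in WT. The Fabp pair, near equal in WT, is described above. Pairs or larger families with genes called in opposite directions must shift in share, so the shift itself is not a result. Cidec held 77.7% of the sum of its pair in Elf4-KO and 9.33% in WT. Elovl4 held 59.3% in Elf4-KO and 1.83% in WT, and Fads3 60.7% in Elf4-KO and 8.13% in WT. All these shares are over listed genes only, so other genes of a family are left out.

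**Figure D3:**
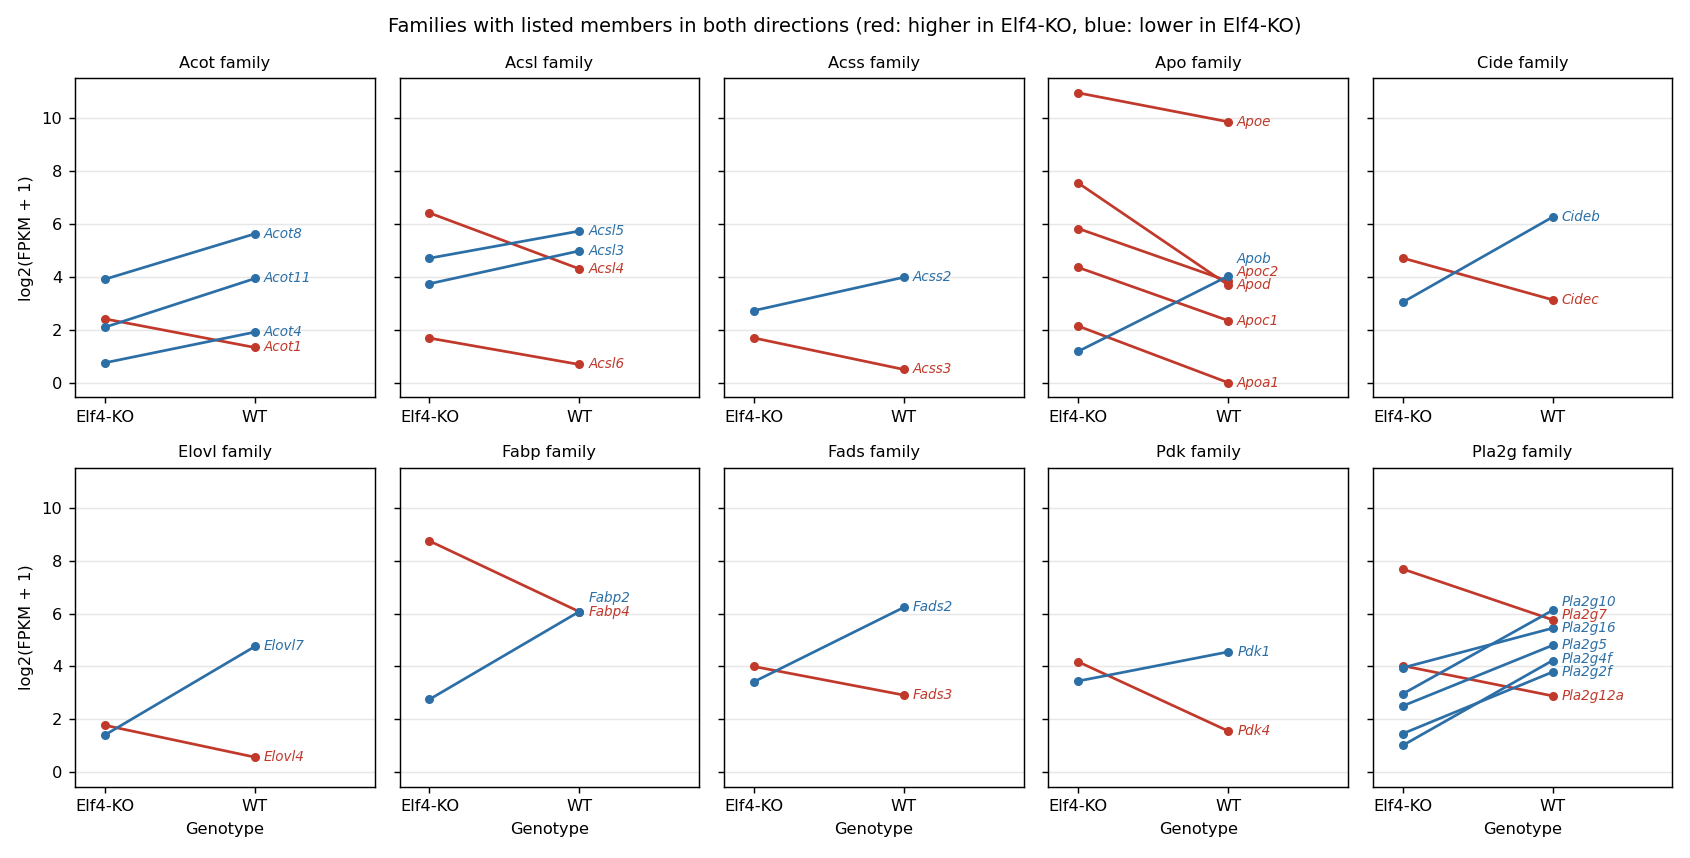
Level as log2(FPKM + 1) in Elf4-KO (left) and WT (right) of each listed gene in the 10 families with genes in both directions, 1 deposited value per genotype (red, higher in Elf4-KO; blue, lower in Elf4-KO). Lines cross in the Cide, Elovl, Fads and Pdk pairs and also in the Acot, Acsl, Apo and Pla2g families, and the Fabp2 and Fabp4 lines meet at the WT level.

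Lipid genes outside these families were taken from 4 lists of 124 genes, of which 55 were listed (44.4%, beside 17.5% of all annotated protein-coding genes). Of these 55, 40 fell (72.7%, beside 52.0% of all listed genes) and 15 rose. Of 29 further genes of beta-oxidation and ketone use, 12 were listed (41.4%, beside 17.5% of all annotated protein-coding genes). Among these 12 genes, 11 fell (91.7%, beside 52.0% of all listed genes). Their median log2 ratio was -1.28. Eci3, an enoyl-CoA isomerase, had 0.245 FPKM in Elf4-KO and 4.67 FPKM in WT. Bdh1, which interconverts ketone bodies, had 9.95 FPKM in Elf4-KO and 34.7 FPKM in WT, and Abcd3, a peroxisomal transporter, had 22.3 FPKM in Elf4-KO and 63.6 FPKM in WT. Abcd2, a peroxisomal transporter of very long chains, was the exception, with 3.36 FPKM in Elf4-KO and 0.914 FPKM in WT. Etfa and Etfb, chosen after their values were seen, take up electrons from the acyl-CoA dehydrogenases, and both fell, 2.05-fold and 2.44-fold.

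Of 33 genes of fatty acid and cholesterol synthesis, 17 were listed (51.5%, beside 17.5% of all annotated protein-coding genes). Among these 17 genes, 15 fell (88.2%, beside 52.0% of all listed genes). Their median log2 ratio was -1.55. The sterol enzyme genes Msmo1, Dhcr7 and Idi1 fell most. Msmo1 had 35.8 FPKM in Elf4-KO and 204 FPKM in WT, Dhcr7 4.78 FPKM in Elf4-KO and 29.6 FPKM in WT, and Idi1 12.2 FPKM in Elf4-KO and 63.0 FPKM in WT. The genes that rose were Acacb, an acetyl-CoA carboxylase, with 4.71 FPKM in Elf4-KO and 1.66 FPKM in WT, and the malic enzyme gene Me1, with 15.2 FPKM in Elf4-KO and 6.98 FPKM in WT. Fasn, Acaca, Acly, Srebf1 and Srebf2 were not listed.

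The list of uptake, transport and lipases went the other way. Of its 39 genes, 13 were listed (33.3%, beside 17.5% of all annotated protein-coding genes). Among these 13 genes, 10 rose (76.9%, beside 48.0% of all listed genes). Their median log2 ratio was 2.06. Gpihbp1, which anchors lipoprotein lipase on capillary endothelium, had 28.4 FPKM in Elf4-KO and 1.87 FPKM in WT (15.2-fold higher). The carboxylesterase genes Ces1g and Ces1f rose 11.7-fold and 8.33-fold. Cd36, a fatty acid uptake receptor, and Abca1, a cholesterol exporter, were chosen after their values were seen and rose 4.79-fold and 4.42-fold. Abcg5, which exports sterols from enterocytes, had 0.550 FPKM in Elf4-KO and 8.96 FPKM in WT, and its partner Abcg8 had 0.311 FPKM in Elf4-KO and 2.31 FPKM in WT. Lpl was not listed.

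Of 23 nuclear receptors and other regulators of lipid genes, 13 were listed (56.5%, beside 17.5% of all annotated protein-coding genes). Among these 13 genes, 11 fell (84.6%, beside 52.0% of all listed genes). Their median log2 ratio was -1.37. Hnf4a, a nuclear receptor of gut and liver epithelium, had 8.93 FPKM in Elf4-KO and 142 FPKM in WT (15.9-fold lower). Its relative Hnf4g had 0.350 FPKM in Elf4-KO and 13.3 FPKM in WT (38.1-fold lower). Nr1h4, the bile acid receptor FXR, had 10.9 FPKM in Elf4-KO and 51.0 FPKM in WT. The fatty acid receptors of the PPAR group, chosen after their values were seen, all fell, Ppara 3.93-fold, Pparg 3.01-fold and Ppard 2.67-fold. Ppara was low in both genotypes, with 0.324 FPKM in Elf4-KO and 1.28 FPKM in WT. Its log2 ratio of FPKM + 1 was -0.78, beside a median of -0.76 for all listed genes. Klf15 had 7.34 FPKM in Elf4-KO and 0.866 FPKM in WT, and Cebpb had 386 FPKM in Elf4-KO and 105 FPKM in WT. Klf15 and Cebpb both encode transcription factors active in fat cells.

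**Figure D4:**
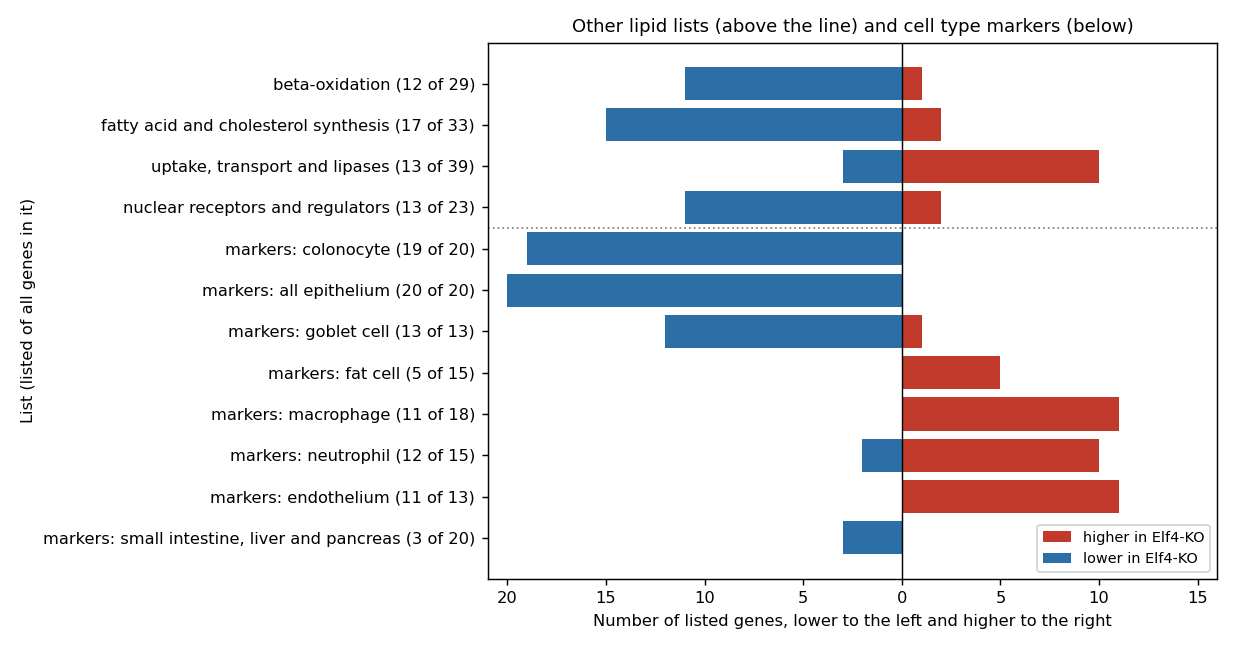
Number of listed genes higher (red, right) and lower (blue, left) in Elf4-KO in each of 4 further lipid lists and 8 marker lists, with the number listed of all genes in the list in brackets. Lists of oxidation, synthesis and regulators fell by 11 of 12, 15 of 17 and 11 of 13, and all 20 epithelial markers fell. Of all listed genes, 52.0% fell.

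Markers of several cell types moved in the same tissue. Beside the counts that follow, 17.5% of all annotated protein-coding genes were listed, and 52.0% of all listed genes fell. All 20 pan-epithelial markers were listed and lower, summing to 891 FPKM in Elf4-KO and 11191 FPKM in WT, with a median fold of 11.6. Of 20 colonocyte markers, 1 of them a lipid gene described above, 19 were listed and lower, and of 13 goblet cell markers 12 were lower. The median log2 ratio was -1.80 for the 32 lipid genes that fell and -3.49 for the pan-epithelial markers. By fold, 5 of the 32 (Hao2, Acsm3, Pla2g4f, Elovl7 and Apob) fell by more than the epithelial median, and 6 of the 32 fell by less than Cldn4, the pan-epithelial marker that changed least (2.60-fold). On the log2(FPKM + 1) scale, which understates low genes, these counts were 2 and 8. In whole tissue, fewer cells of a type and less RNA per cell cannot be told apart.

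Listed markers of macrophages, endothelium and fat cells were higher, and those of neutrophils moved both ways. For comparison, 17.5% of all annotated protein-coding genes were listed, and 48.0% of all listed genes rose. Of 18 macrophage markers, 11 were listed and 11 rose, summing to 1038 FPKM in Elf4-KO and 191 FPKM in WT, while Adgre1, Csf1r, Lyz2 and C1qa were not listed. Of 13 endothelial markers, 11 were listed and 11 rose, summing to 479 FPKM in Elf4-KO and 140 FPKM in WT. Gpihbp1, which is also in the lipid uptake list above, is 1 of them and rose most. Of 15 neutrophil markers, 12 were listed and 10 rose, while Ly6g and Ltf fell 5.86-fold and 7.01-fold. Of 15 fat cell markers, 5 were listed and 5 rose, but 3 of these are the lipid genes Fabp4, Cidec and Plin4 themselves, and Adipoq, Lep and Plin1 were not listed. Of 20 symbols of small intestine, liver and pancreas, 3 were listed (15%, below the 17.5% of all annotated protein-coding genes) and 3 fell. No listed gene of these lists was at 0 in either genotype. The part of these cell types in the lipid gene values was not tested.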

How the data were processed

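RNA of 2 Elf4-KO and 2 WT colon samples was sequenced. Trizol extraction and a Vazyme mRNA library kit were used, per the labels' protocols. The submitters' processing notes name Bowtie 0.12.2, Cufflinks 2.2.1 and the build mm8 but give no role for any. The deposited table holds 1 FPKM value per gene and genotype (named so per the file headers). How both samples were combined, and whether counting used strand, is not stated in the labels. Each gene also has a p-value and a q-value in the deposited table, computed by the authors with a method that is not given. Depth and the spread between samples are unknown, so no normalization or test of samples was computed.

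Of 4121 gene identifiers, 4116 were found in GENCODE M21, so coordinates are given on GRCm38, counting from 1. Members were selected by symbol pattern and sorted into 12 role groups. Folds were computed from the FPKM values, and log2 ratios of Elf4-KO over WT after adding 1 FPKM, which understates the change of low genes. The share of exonic bases under exons of another gene, and of 50-base words found in transcripts of another gene, was computed from GENCODE M21. Promoter sequences were those of RefSeq on GRCm38.p6. Genes of other lists were named by a rule: all listed genes where there were 6 or fewer, otherwise the 3 largest rises and 3 largest falls with at least 1 FPKM in the higher genotype. Some genes that these rules name are not reported here, though counts and medians include them. Members and lists were chosen with earlier results of these data known. Motifs and a promoter added later are said to be so where they appear. Counting and ratio steps were tested on simulated data. Alternatives were a stricter q, FPKM minimums, leaving out members at 0 or with a shared locus, other pseudocounts and centring. Scripts ran in Python 3.11.15 (numpy 2.4.6; pandas 2.3.3; matplotlib 3.10.9).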

Additional observations from a re-analysis of the deposited data

How the results depend on the processing

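No paired analysis was possible because both samples of a genotype share 1 deposited FPKM. Leaving out each sample in turn was not run for that reason, so the weight of any 1 library cannot be given. Of 25 alternatives, 24 kept their result within 1.5 times, and the exception was the median log2 ratio of the 52 genes, which was -1.20, and -0.44 when centred on the table median of -0.76. That shift follows from the centring itself. Centring turned the sign of 0 of the 52 genes and of 1 of 11 group medians, that of the fatty acid binding proteins, to 0.43. Over the other alternatives the count of lower genes was between 28 and 32 and that of higher genes between 14 and 20. With at least 5 FPKM in the higher genotype, genes at least 4-fold higher went from 9 to 6, at the limit of 1.5 times. Those at least 4-fold lower went from 16 to 15.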
